A study of Mus musculus with 8 samples.

Results

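The 8 genes described here were a group of WNT target genes and TCF factors: the DNA-binding factors of the pathway Lef1, Tcf7, Tcf7l1 and Tcf7l2, the target gene Sp5, and the targets Axin2, Nkd1 and Dkk1, whose products restrain the pathway. Their probe sets were those whose only gene symbol in the platform annotation was one of these names, which gave 17 of the 34945 probe sets with 1 symbol. Of the 8 genes 7 had such a probe set, among 18193 genes in all that did, and Tcf7 had none. A gene entered the tests where at least 1 of its probe sets exceeded 50 on the linear scale (5.64 on the log2 scale) in at least 1 array, and its value was the mean of the probe sets that did so. This left 6 of the 8 genes (Sp5, Lef1, Axin2, Tcf7l1, Tcf7l2 and Nkd1) among 11940 tested genes, and Dkk1 stayed under the minimum in every array.

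Expression was measured on Affymetrix mouse arrays in V6.5 mouse embryonic stem cells (ESCs), of which all groups carried a constitutive lentiviral shRNA against mouse Wdr5, a doxycycline-inducible human WDR5 transgene linked to GFP, and a sort for GFP. WDR5 is a WD-repeat scaffold of the MLL complexes, which place methyl groups on lysine 4 of histone H3. The transgene coded for either WDR5 with the substitution F266A, in the pocket through which WDR5 binds RNA, or the wild-type protein (WT), and each line was grown on gelatin with LIF, with doxycycline (+dox, 2 µg per mL) or after its withdrawal (-dox). The 4 groups of 2 arrays, biological duplicates by the study's methods, were thus F266A -dox, F266A +dox, WT -dox and WT +dox. No group had its own Wdr5 mRNA untouched. There was 1 line per transgene, and the study describes less F266A than WT protein, so the substitution cannot be told apart from the protein level or from other differences between the lines.

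In canonical WNT signalling, secreted WNT ligands bind Frizzled and LRP receptors and stop a destruction complex, built on the scaffolds Axin and APC, from marking beta-catenin for degradation. Beta-catenin then enters the nucleus and binds TCF/LEF factors, which sit on DNA at short motifs and, without beta-catenin, recruit repressors of the Groucho/TLE family. In mouse ESCs Tcf7l1 acts mainly as a repressor of pluripotency genes such as Nanog and Esrrb, and Axin2, Sp5 and Lef1 are widely used as readouts of the pathway.

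To show where the measured targets sit relative to TCF motifs, the 250 bases before a transcription start were read from the RefSeq promoters of GRCm38.p6, and the core motifs CTTTGAT and CTTTGAA were searched on both strands. On the same strand a match does not overlap a match of the other motif, since they differ in the last base at the same place. Matches on opposite strands can overlap. Sp5 (chromosome 2, 70474923 to 70477726) and Dkk1 (chromosome 19, 30545876 to 30549496) are the 2 of the 8 genes that had a match, and the target Axin2 (chromosome 11, 108917828 to 108950783) is shown beside them as one that had none, before a RefSeq start that lies inside its annotated span. Capitals mark the motif.
Sp5, chr2:70474673-70474922, plus strand: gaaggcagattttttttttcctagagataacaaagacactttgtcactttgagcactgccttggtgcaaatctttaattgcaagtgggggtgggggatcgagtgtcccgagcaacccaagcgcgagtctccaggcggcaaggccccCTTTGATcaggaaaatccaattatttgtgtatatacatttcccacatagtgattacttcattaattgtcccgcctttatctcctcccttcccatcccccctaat
Dkk1, chr19:30549497-30549746, minus strand: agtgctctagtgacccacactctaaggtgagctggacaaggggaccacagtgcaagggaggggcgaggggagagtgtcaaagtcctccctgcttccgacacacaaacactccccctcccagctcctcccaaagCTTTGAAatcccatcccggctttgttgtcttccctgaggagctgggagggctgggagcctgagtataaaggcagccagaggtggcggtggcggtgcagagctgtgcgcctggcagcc
Axin2, chr11:108920099-108920348, plus strand: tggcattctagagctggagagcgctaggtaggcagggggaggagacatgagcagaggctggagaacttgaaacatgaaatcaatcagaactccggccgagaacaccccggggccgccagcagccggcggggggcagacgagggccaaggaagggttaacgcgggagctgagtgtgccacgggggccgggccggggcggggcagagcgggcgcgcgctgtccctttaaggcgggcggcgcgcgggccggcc

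In Sp5 the motif CTTTGAT lay 104 to 98 bases before the start, and in Dkk1 the motif CTTTGAA lay 117 to 111 bases before it. Of the 13 RefSeq windows of the 8 genes, each of 300 bases from 250 before to 50 after a start, these 2 held a match. Over all 32851 promoters of the same length, 8.65% held at least 1 match, 3.73% CTTTGAT and 5.14% CTTTGAA. A match is a stretch of letters and was not shown to be bound here, and the other windows only lacked these letters.

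Among the 6 tested genes, Sp5 differed most between the groups and Lef1 followed. Sp5 was higher in the F266A line than in the WT line with and without doxycycline, and in each line it was higher without doxycycline than with it. Lef1 was also higher without doxycycline in both lines, but between the 2 lines without doxycycline it did not pass the test. Axin2 rose on withdrawal in the F266A line. Tcf7l1 and Tcf7l2 differed by at most 0.51 on the log2 scale between any 2 groups, and Nkd1 passed no test.

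Values are log2 RMA signals, differences are log2 differences fitted by limma over all 8 arrays with their standard error, and a gene was called at a Benjamini-Hochberg adjusted p under 0.05 over all 11940 genes. In F266A +dox against WT +dox, 4 of the 6 tested genes were called higher and 0 lower, where 15.9% of all tested genes were called higher and 12.5% lower. In F266A -dox against F266A +dox, 3 were called higher and 0 lower, with 8.94% and 10.6% of all genes. In WT -dox against WT +dox, 2 were called higher and 1 lower, with 16.1% and 15.4% of all genes.

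The comparison of F266A -dox with WT -dox called 3 of the 6 higher and 0 lower, with 14% and 13.4% of all genes. That of F266A +dox with WT -dox called 1 higher and 1 lower, with 9.09% and 4.41% of all genes. Between the outermost groups, F266A -dox and WT +dox, 4 were called higher and 0 lower, with 25.9% and 25% of all genes. For the interaction, the change on withdrawal in the F266A line minus that in the WT line, 1 was called higher and 0 lower, with 2.21% and 2.94% of all genes. The median difference over the 6 genes was 0.31 in F266A +dox minus WT +dox, 0.38 in F266A -dox minus F266A +dox and 0.21 in WT -dox minus WT +dox, and the median over all tested genes was 0.00 in each. Several of these comparisons share arrays, so their counts are not separate evidence.

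**Figure D1:**
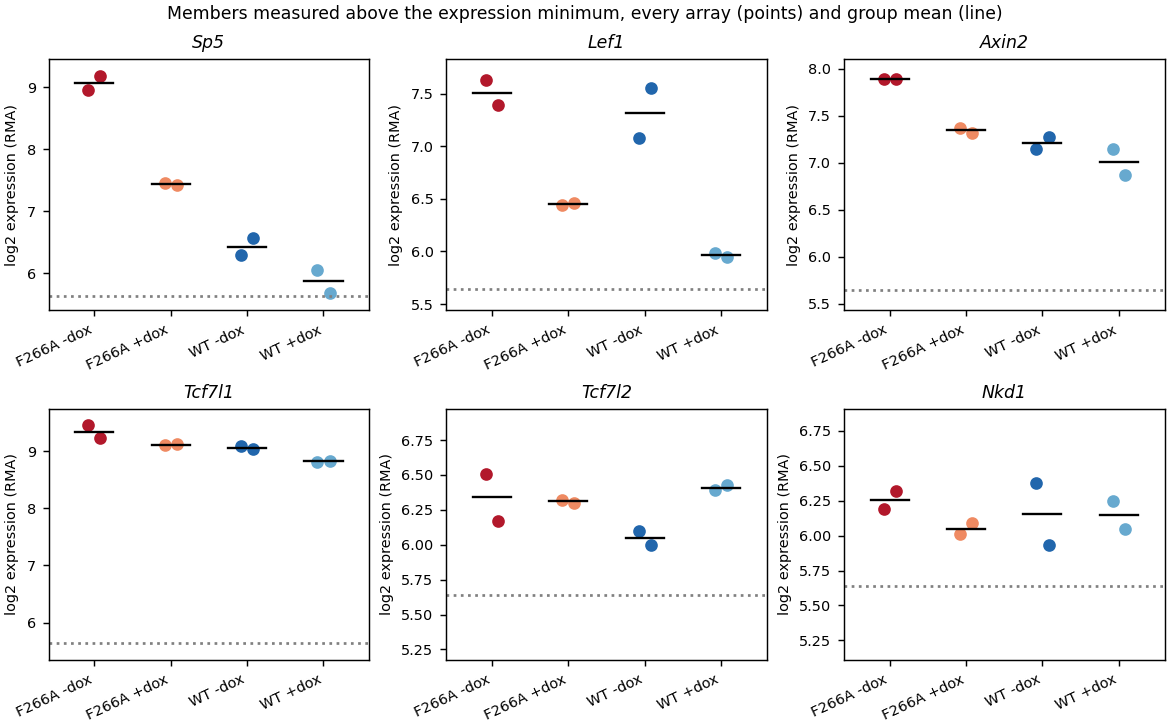
Log2 expression (RMA, vertical axis) of the 6 tested genes in each of the 8 arrays, by group (horizontal axis). Points are arrays, bars are group means and the dotted line is the expression minimum of 5.64. Sp5 steps down over the 4 groups without overlap, and Lef1 is high in both groups without doxycycline.

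Sp5 encodes a zinc finger factor of the Sp family and is a direct target of WNT signalling. Its 1 probe set read 8.96 and 9.18 in F266A -dox, 7.45 and 7.42 in F266A +dox, 6.29 and 6.57 in WT -dox, and 6.06 and 5.68 in WT +dox. The 4 groups did not overlap, both F266A groups lay above both WT groups, and the lower WT +dox array was close to the minimum. The group means ± SD were 9.07 ± 0.16, 7.43 ± 0.02, 6.43 ± 0.19 and 5.87 ± 0.27 in the same order (n = 2 each).

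With doxycycline, Sp5 was 2.95-fold higher in F266A than in WT (1.56 ± 0.13, limma adjusted p = 5.24e-05). Without doxycycline the difference between the lines was 6.23-fold (2.64 ± 0.13, adjusted p = 5.66e-06). On withdrawal it rose 3.10-fold in the F266A line (1.63 ± 0.13, adjusted p = 0.00025). The F266A line with doxycycline was also above the WT line without it (1.00 ± 0.13, adjusted p = 0.00155). These 4 calls held under every alternative tried. So did that between the outermost groups, F266A -dox and WT +dox, which stood 9.16-fold apart (3.20 ± 0.13, adjusted p = 3.6e-07).

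In the WT line the rise of Sp5 on withdrawal was 1.47-fold (0.56 ± 0.13, adjusted p = 0.0125). Leaving out WT -dox replicate 2 ended that call (0.42, adjusted p = 0.0867), as did leaving out WT +dox replicate 2 (0.37, adjusted p = 0.0798). The rises in the 2 lines differed by 1.08 ± 0.19 (interaction, limma adjusted p = 0.0157), more in F266A. The WT arrays lay nearer the minimum, where RMA compresses small differences, and the part of this in the interaction was not tested. The interaction kept its size but was no longer called without either F266A +dox array (1.09 and 1.06, adjusted p = 0.0711 and 0.0679).

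A control signal and some markers of other cell types were graded along the same groups as Sp5. The array's control probe set for the middle of 18S ribosomal RNA read 9.60 and 9.57 in F266A -dox, 10.61 and 10.35 in F266A +dox, 11.13 and 10.78 in WT -dox, and 11.42 and 10.99 in WT +dox, the reverse order of Sp5. Of 7 endoderm markers 3 were tested, and the group means of Dab2 followed the order of Sp5, at 6.93 in F266A -dox, 6.66 in F266A +dox, 5.92 in WT -dox and 5.65 in WT +dox. The other 2 did not: Foxa2 averaged 6.01, 5.32, 5.56 and 5.25 in the same order, over the minimum in F266A -dox alone, and Gata6 averaged 5.39, 5.51, 5.52 and 5.50. Sox17, a defining marker, stayed under the minimum in all arrays. Of 7 neural markers 4 were tested, and the group means of Nes followed the order of Sp5, at 8.02, 7.65, 7.24 and 6.92. Those of Sox1 were lowest in F266A -dox and highest in WT +dox, at 5.435, 5.72, 5.713 and 6.076. Pax6, at 5.951, 5.523, 5.702 and 5.436, and Tubb3, at 8.124, 7.716, 8.232 and 7.683, had other orders. Of 5 trophectoderm markers 3 were tested. The group means of Cdx2 followed the order of Sp5, at 6.175, 5.492, 5.488 and 5.184, over the minimum in F266A -dox alone. Tfap2c ran in the reverse order, at 8.513, 8.762, 9.004 and 9.281, and Krt7 had another order, at 8.447, 8.403, 6.98 and 7.999. The group means of the mesoderm marker Hand1 followed the order of Sp5 by small steps, at 6.803, 6.785, 6.64 and 6.611, with no comparison called. The part of the 18S signal and of Dab2 in the Sp5 result was not tested. In these bulk samples, fewer cells of a type and less RNA per cell cannot be told apart.

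Sp5 is also transcribed in the primitive streak of the embryo. Of 7 primitive streak and mesoderm markers 5 were tested. Withdrawal called 2 higher and 0 lower in the F266A line, with 8.94% and 10.6% of all genes. It called none in the WT line, with 16.1% and 15.4% of all genes. The log2 summed signal was 9.31 to 9.4 in F266A -dox, 8.99 to 9.08 in F266A +dox, 9.03 to 9.08 in WT -dox and 9.04 to 9.08 in WT +dox. Mixl1, a homeobox gene of the streak, read 6.38 and 6.73 in F266A -dox, 5.77 and 5.86 in F266A +dox, 5.88 and 5.83 in WT -dox, and 5.73 and 5.76 in WT +dox. The summed signal was highest in F266A -dox and overlapped among the other 3 groups, which Sp5 kept apart.

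Lef1 (chromosome 3, 131110297 to 131224357) encodes the TCF/LEF factor that most often acts as an activator with beta-catenin, and the gene is itself a WNT target. It read 7.63 and 7.39 in F266A -dox, 6.44 and 6.46 in F266A +dox, 7.08 and 7.55 in WT -dox, and 5.99 and 5.95 in WT +dox. Both groups without doxycycline lay above both groups with it, and the 2 groups without doxycycline overlapped each other.

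On withdrawal Lef1 rose 2.08-fold in the F266A line (1.06 ± 0.14, limma adjusted p = 0.00141) and 2.54-fold in the WT line (1.35 ± 0.14, adjusted p = 0.000143). These 2 changes differed by -0.29 ± 0.19 (adjusted p = 0.434, 95% interval -0.72 to 0.15). In F266A +dox Lef1 was lower than in WT -dox (-0.86 ± 0.14, adjusted p = 0.00357). Both calls of withdrawal held under every alternative tried. Of the 4 tested neural markers, withdrawal called 3 higher and 0 lower in the F266A line, with 8.94% and 10.6% of all genes. In the WT line it called 3 higher and 1 lower, with 16.1% and 15.4% of all genes. The one that went the other way was Sox1, with -0.29 ± 0.12 in the F266A line (adjusted p = 0.123) and -0.36 ± 0.12 in the WT line (adjusted p = 0.0422). Their part in the Lef1 result was not tested.

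Between the lines without doxycycline, Lef1 differed by 0.20 ± 0.14 (adjusted p = 0.324, 95% interval -0.11 to 0.51). Leaving out WT -dox replicate 1 turned that value to -0.04, and with the other WT -dox array left out instead it was 0.43 and called (adjusted p = 0.0275). With doxycycline Lef1 was 1.40-fold higher in F266A than in WT (0.48 ± 0.14, adjusted p = 0.0271), a call that ended when any 1 of these 4 arrays was left out (adjusted p = 0.0829 to 0.11) and with no expression minimum, where the dim probe set is averaged in (0.29, adjusted p = 0.134).

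The second Lef1 probe set stayed under the minimum throughout, at 4.53 and 4.28 in F266A -dox, 3.80 and 3.61 in F266A +dox, 4.01 and 4.17 in WT -dox, and 3.54 and 3.67 in WT +dox. It too read higher in both groups without doxycycline, though a signal under the minimum was not shown to exceed background.

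Among the targets whose products restrain the pathway, Axin2 was measured best. It encodes the inducible scaffold of the destruction complex, a negative feedback on beta-catenin. Axin2 read 7.89 and 7.89 in F266A -dox, 7.37 and 7.32 in F266A +dox, 7.14 and 7.27 in WT -dox, and 7.15 and 6.87 in WT +dox. F266A -dox stood above all other groups, and the 2 WT groups overlapped.

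Axin2 rose 1.46-fold on withdrawal in the F266A line (0.54 ± 0.09, limma adjusted p = 0.00477), and without doxycycline it was 1.61-fold higher in F266A than in WT (0.68 ± 0.09, adjusted p = 0.000754). With no minimum, which averages in a second probe set under the minimum, the rise on withdrawal was 0.30 and not called (adjusted p = 0.0752). In the WT line the difference on withdrawal was 0.19 ± 0.09 (adjusted p = 0.148, 95% interval -0.02 to 0.40), and it was called without WT +dox replicate 1 (0.33, adjusted p = 0.031). The 2 changes differed by 0.35 ± 0.13 (interaction, adjusted p = 0.168).

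With doxycycline, Axin2 was 1.26-fold higher in F266A than in WT (0.33 ± 0.09, limma adjusted p = 0.0264). This call ended without either F266A +dox array (adjusted p = 0.133 and 0.0761), without WT +dox replicate 2 (0.20, adjusted p = 0.159) and with no minimum (0.26, adjusted p = 0.0995). The higher level in F266A -dox than in WT -dox held under every alternative tried except the threshold of 2-fold, which it does not reach.

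Nkd1 (chromosome 8, 88521342 to 88594887) encodes a Dishevelled-binding antagonist. It read 6.19 and 6.32 in F266A -dox, 6.01 and 6.09 in F266A +dox, 6.38 and 5.93 in WT -dox, and 6.25 and 6.05 in WT +dox. The WT -dox duplicates spanned the values of every other group, and no comparison was called, the largest being 0.21 ± 0.13 in F266A -dox minus F266A +dox (limma adjusted p = 0.315, 95% interval -0.09 to 0.51). The values came from 1 of 4 probe sets, and the other 3 stayed under the minimum. The 652 tested genes of chromosome 8 had a median of 0.12 in F266A -dox minus F266A +dox, against 0.00 over all genes with a known chromosome.

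Dkk1 encodes a secreted inhibitor that blocks the LRP co-receptors. Its brighter probe set read 4.89 and 4.69 in F266A -dox, 4.48 and 4.58 in F266A +dox, 4.30 and 4.30 in WT -dox, and 4.05 and 4.29 in WT +dox, all under the minimum. The groups did not overlap by their array values, but at this level a signal was not shown to exceed background. With no minimum and both probe sets averaged, Dkk1 was 0.30 ± 0.08 higher in F266A -dox than in WT -dox (limma adjusted p = 0.0319) and 0.29 ± 0.08 higher than in WT +dox (adjusted p = 0.0203), and no other comparison was called.

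**Figure D2:**
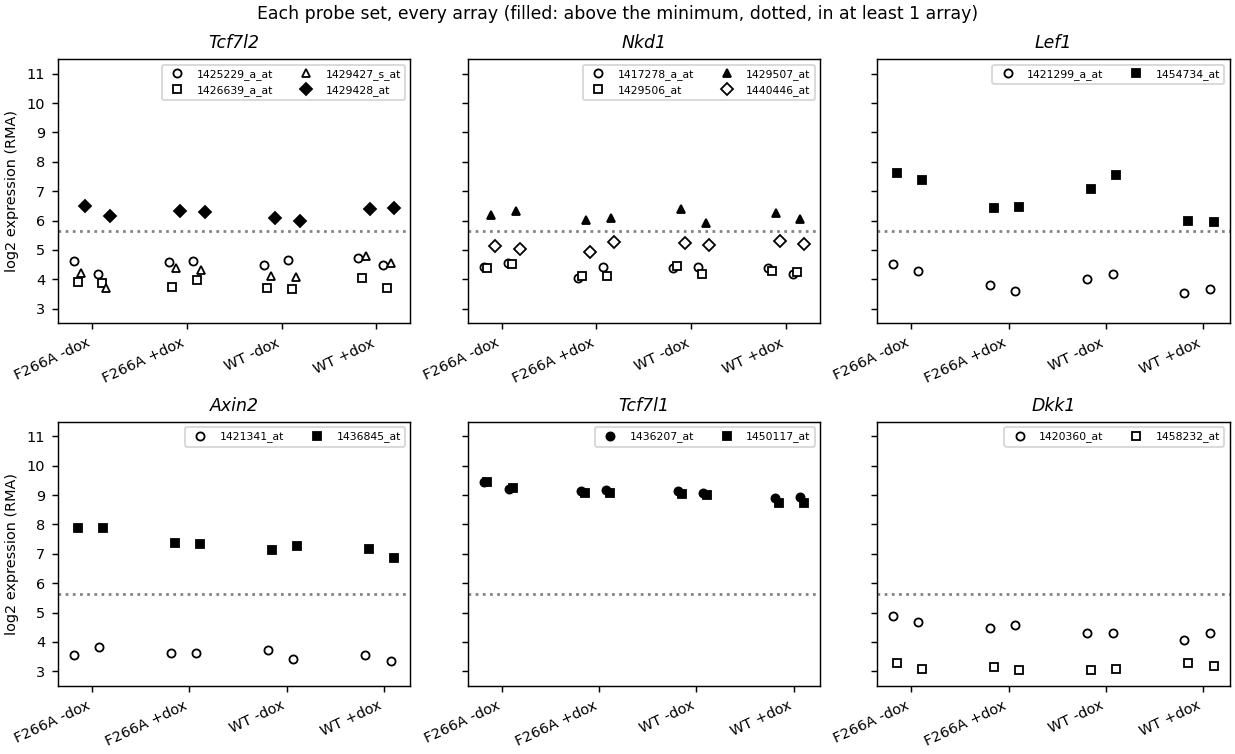
Log2 expression (RMA, vertical axis) of each probe set of the genes with several, in every array by group (horizontal axis). Filled symbols are probe sets above the minimum (dotted line at 5.64) in at least 1 array. Only Tcf7l1 had more than 1 such probe set, and both Dkk1 probe sets lie under the line.

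Of the remaining TCF factors, Tcf7l1 (chromosome 6, 72626371 to 72789045) was measured by 2 probe sets, both over the minimum. Their mean was 9.45 and 9.22 in F266A -dox, 9.10 and 9.12 in F266A +dox, 9.09 and 9.03 in WT -dox, and 8.81 and 8.83 in WT +dox. The groups did not overlap, F266A -dox was the highest and WT +dox the lowest, and the 2 groups between them were within 0.05 ± 0.08 of each other (adjusted p = 0.736, 95% interval -0.13 to 0.23).

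Tcf7l1 was 1.43-fold higher in F266A -dox than in WT +dox (0.51 ± 0.08, limma adjusted p = 0.000641), which held under every alternative tried except the threshold of 2-fold. With doxycycline it was 0.29 ± 0.08 higher in F266A than in WT (adjusted p = 0.0272), and without doxycycline 0.28 ± 0.08 higher (adjusted p = 0.0324). The first of these calls ended when any 1 of its 4 arrays was left out (adjusted p = 0.0807 to 0.105) and with only the brighter probe set (0.23, adjusted p = 0.0871).

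The second call, F266A -dox over WT -dox, ended without F266A -dox replicate 1 (0.16, adjusted p = 0.167), without either WT -dox array (adjusted p = 0.0835 and 0.16), without either F266A +dox array (adjusted p = 0.0511 each), with no minimum (adjusted p = 0.0571), in a fit of these 2 groups alone (adjusted p = 0.0772) and with only the brighter probe set (0.23, adjusted p = 0.092). Withdrawal changed Tcf7l1 by 0.23 ± 0.08 in the F266A line (adjusted p = 0.0833) and by 0.24 ± 0.08 in the WT line (adjusted p = 0.0529), neither called. The WT value was called in 6 alternatives, with adjusted p down to 0.0187 under the trended and robust prior, and the F266A value in 3, with adjusted p down to 0.029 without F266A -dox replicate 2. The dimmer of the 2 probe sets was called on its own in both lines (0.28, adjusted p = 0.0485, in F266A and 0.30, adjusted p = 0.0239, in WT). The 571 tested genes of its chromosome had a median of 0.06 in F266A +dox minus WT +dox and 0.05 in F266A -dox minus WT -dox, against 0.00 and -0.01 over all genes with a known chromosome, and its part in these differences was not tested.

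Tcf7l2 (chromosome 19, 55741797 to 55933659), a factor that can activate or repress depending on beta-catenin, read 6.51 and 6.17 in F266A -dox, 6.32 and 6.30 in F266A +dox, 6.10 and 6.0 in WT -dox, and 6.39 and 6.43 in WT +dox. WT -dox was the lowest group and overlapped no other, and the F266A -dox duplicates spanned both groups with doxycycline. On withdrawal the difference was 0.02 ± 0.10 in the F266A line (limma adjusted p = 0.903, 95% interval -0.21 to 0.25). In the WT line Tcf7l2 was 1.28-fold lower after withdrawal (-0.36 ± 0.10, limma adjusted p = 0.0248), the opposite direction to Lef1.

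The call in the WT line ended without each of its 4 arrays (adjusted p = 0.0542 to 0.128) and with no minimum (-0.30, adjusted p = 0.104). The interaction was 0.38 ± 0.15 (adjusted p = 0.167), and without F266A -dox replicate 2 it was 0.56 and called (adjusted p = 0.0355). Of the 4 Tcf7l2 probe sets 3 stayed under the minimum.

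**Figure D3:**
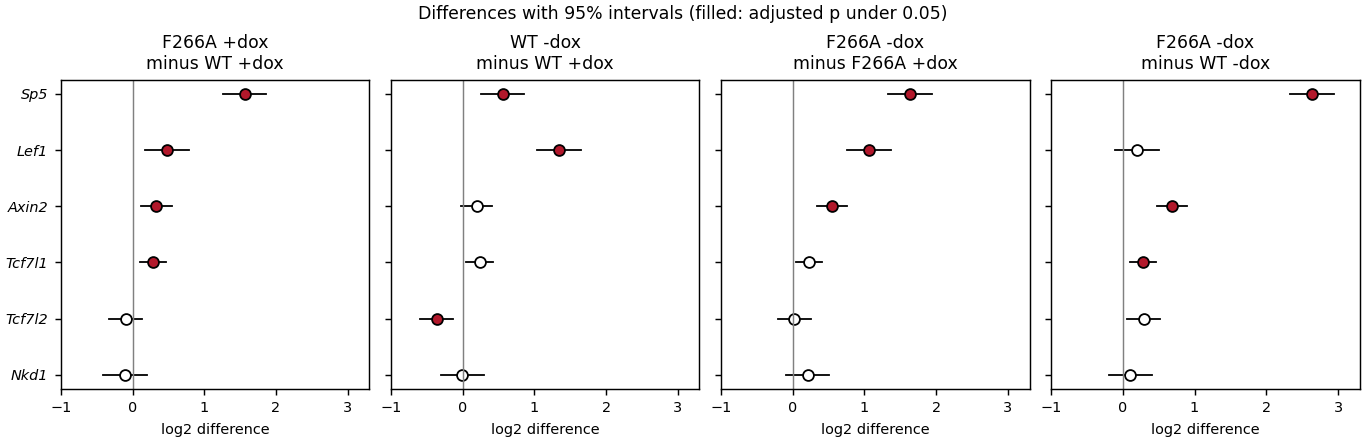
Log2 differences (horizontal axis) of the 6 tested genes (rows) in 4 comparisons, with 95% intervals as lines. Filled points have an adjusted p under 0.05. Sp5 lies farthest right except on withdrawal in the WT line, where Lef1 does at 1.35, and Tcf7l2 is the one called point left of 0, at -0.36.

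The arrays were alike in overall signal, with a correlation of 0.996 to 0.997 within groups and 0.953 to 0.990 between them. Of 9 ESC markers all 9 were tested, and Pou5f1, which defines the pluripotent state, read 12.72 to 13.06 over the 8 arrays. Other ESC markers moved in F266A -dox, where Sp5 was highest. Against WT -dox 6 of the 9 were called lower (66.7%, with 13.4% of all genes) and 0 higher (with 14%). Against WT +dox 5 were called lower (55.6%, with 25% of all genes) and 1 higher (11.1%, with 25.9%). Sox2 was -0.51 ± 0.08 in F266A -dox minus WT +dox (limma adjusted p = 0.000595), Klf4 was -1.31 ± 0.07 (adjusted p = 1.07e-06), and Dnmt3l was 1.61 ± 0.08 in WT -dox minus WT +dox (adjusted p = 4.17e-06). Of 10 fibroblast markers 2 were tested. Col1a1 stayed under the minimum at 4.33 to 4.52, while Col1a2 was also highest in F266A -dox, by 0.80 ± 0.16 over WT -dox (adjusted p = 0.00495) and 0.63 ± 0.16 over WT +dox (adjusted p = 0.00748). The other tested one, Fbln1, was highest in WT +dox, with -0.30 ± 0.06 in F266A -dox minus WT +dox (limma adjusted p = 0.00366). In F266A -dox minus WT -dox Fbln1 was 0.04 ± 0.06 (limma adjusted p = 0.677). The part of these markers in the results on WNT genes was not tested.

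The 2 Wdr5 probe sets averaged 9.31 and 9.27 in F266A -dox, 8.59 and 8.56 in F266A +dox, 9.45 and 9.35 in WT -dox, and 8.35 and 8.32 in WT +dox. In each line both read higher without doxycycline, whereas the transgene is induced by doxycycline. Whether they detect the mouse or the human transcript is not stated, so they do not check the knockdown or the transgene.

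The rest of the pathway was described from lists of 103 other genes, of which 74 were tested. A further list, of pluripotency genes repressed by Tcf7l1, stands outside these counts and is given last. In F266A +dox minus WT +dox, 22 of the 74 were called higher (29.7%) and 7 lower (9.46%). On withdrawal in the F266A line 17 were higher (23%) and 5 lower (6.76%), and on withdrawal in the WT line 14 were higher (18.9%) and 7 lower (9.46%). The percentages of all tested genes called in these comparisons are those given above.

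Genes for WNT ligands and their secretion, 12 of 21 tested, were called higher in 8 and lower in 0 cases in F266A +dox against WT +dox (median 0.57). Withdrawal called 5 higher and 1 lower in the F266A line (median 0.22) and 3 higher and 0 lower in the WT line (median 0.09). Some of these genes entered the tests only through another group: in F266A +dox against WT +dox 4 of the 12 had both group means under the minimum, among them 2 of the 8 called (Wnt8a and Wnt5b), which leaves 6 called. The same held for 6 of the 12 and 1 of the 3 called on withdrawal in the WT line, so these counts and medians are descriptions only.

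Wls, the carrier that brings WNT proteins to the cell surface, read 7.15 and 7.50 in F266A -dox, 6.89 and 6.96 in F266A +dox, 5.0 and 5.18 in WT -dox, and 4.65 and 4.89 in WT +dox. It was over the minimum in the F266A line alone (2.15 ± 0.12 with doxycycline, limma adjusted p = 7.19e-06), and the size of that difference rests on WT signals under the minimum.

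The ligand gene Wnt4 read 7.52 and 7.80 in F266A -dox, 7.14 and 7.15 in F266A +dox, 6.39 and 6.50 in WT -dox, and 6.15 and 5.81 in WT +dox. Its groups did not overlap and kept the order of Sp5 (1.17 ± 0.12 with doxycycline, adjusted p = 0.00015). Porcn, the acyltransferase that WNT ligands need for secretion, had another order, with 8.29 and 8.22 in F266A -dox, 8.52 and 8.47 in F266A +dox, 8.81 and 8.81 in WT -dox, and 7.66 and 7.65 in WT +dox. It was highest in WT -dox (1.16 ± 0.06 over WT +dox, adjusted p = 7.39e-06).

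Of 15 tested receptor and receptor turnover genes 5 were called higher and 0 lower in F266A +dox against WT +dox (median 0.07). The higher calls were 33.3%, with 15.9% of all genes. On withdrawal in the F266A line 3 were called higher (20%, with 8.94% of all genes) and 1 lower (6.67%, with 10.6%). In the WT line withdrawal called 2 higher (13.3%, with 16.1%) and 1 lower (6.67%, with 15.4%). The Frizzled receptor gene Fzd2 read 8.53 and 8.62 in F266A -dox, 8.36 and 8.15 in F266A +dox, 7.40 and 7.54 in WT -dox, and 6.78 and 6.74 in WT +dox, with both F266A groups above both WT groups (1.49 ± 0.09 with doxycycline, limma adjusted p = 8.29e-06). Lgr4, an R-spondin receptor, rose in WT -dox over WT +dox (0.61 ± 0.08, adjusted p = 0.000452). Fzd6 was higher in F266A +dox than in WT +dox (0.52 ± 0.09, adjusted p = 0.00254).

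Secreted inhibitors went both ways, with 2 of 8 tested called higher and 2 lower in F266A +dox against WT +dox. Sfrp1, a decoy that binds WNT ligands, read 7.61 and 7.50 in F266A -dox, 8.46 and 8.43 in F266A +dox, 8.42 and 8.34 in WT -dox, and 9.44 and 9.47 in WT +dox. It was lowest in F266A -dox and highest in WT +dox, the opposite ends to Sp5 (-1.01 ± 0.07 in F266A +dox minus WT +dox, adjusted p = 1.65e-05). Notum, a WNT deacylase that is itself a target, and Sfrp2 rose in WT -dox over WT +dox (0.82 ± 0.08, adjusted p = 0.000107, and 0.64 ± 0.11, adjusted p = 0.00225).

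Of 18 genes of beta-catenin and its destruction complex 17 were tested. In F266A +dox against WT +dox 0 were called higher and 3 lower (17.6%, with 12.5% of all genes called lower), on withdrawal in the WT line 0 and 2 (11.8%, with 15.4%), and in F266A -dox against WT +dox 1 and 4 (23.5%, with 25%), so the lower calls were near the share of all genes. The kinase gene Csnk1e fell by 0.55 in WT -dox against WT +dox (SE 0.08, limma adjusted p = 0.00109) and Csnk1a1 by 0.38 (SE 0.07, adjusted p = 0.00323). Tnks2, a tankyrase that turns Axin over, was -0.24 ± 0.06 in F266A +dox minus WT +dox (adjusted p = 0.0229).

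Nuclear cofactors of TCF were mixed, with 13 of 15 tested. In F266A +dox against WT +dox 1 was called higher (7.69%, with 15.9% of all genes) and 2 lower (15.4%, with 12.5%). On withdrawal in the WT line 3 were called higher (23.1%, with 16.1%) and 2 lower (15.4%, with 15.4%). With 13 genes, these counts lay near the shares of all genes. The corepressor gene Tle4 rose in WT -dox over WT +dox (0.86 ± 0.06, limma adjusted p = 2.58e-05), whereas Tle3, of the same family, fell by 0.44 (SE 0.07, adjusted p = 0.00119). Tle5, a short family member, was -0.73 ± 0.13 in F266A +dox minus WT +dox (adjusted p = 0.00314).

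Other WNT target genes, 9 of 14 tested, were called higher in 6 and lower in 0 cases in F266A +dox against WT +dox (median 0.71), in 5 and 0 on withdrawal in the F266A line (median 0.32), and in 4 and 0 on withdrawal in the WT line (median 0.29). Of these calls, Cd44 had both group means under the minimum in F266A +dox against WT +dox (4.74 and 4.03) and on withdrawal in the F266A line (5.58 and 4.74), which leaves 5 and 4 called higher. Myc, a growth regulator with many inputs besides WNT, read 8.97 and 8.84 in F266A -dox, 7.88 and 7.67 in F266A +dox, 8.47 and 8.41 in WT -dox, and 5.84 and 6.09 in WT +dox. Like Lef1, it was higher in both groups without doxycycline than in both groups with it. Jun (1.17 ± 0.14, limma adjusted p = 0.000352) and Nrcam (1.08 ± 0.17, adjusted p = 0.0014) were higher in F266A +dox than in WT +dox, where Nrcam lay under the minimum.

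All 4 pluripotency genes known to be repressed by Tcf7l1 were tested, and 3 fell in F266A +dox against WT +dox (median -0.37), 4 on withdrawal in the F266A line (median -0.59) and 3 on withdrawal in the WT line (median -0.37). Tfcp2l1 read 10.40 and 10.60 in F266A -dox, 11.16 and 11.19 in F266A +dox, 11.15 and 11.20 in WT -dox, and 11.67 and 11.71 in WT +dox. It was lowest in F266A -dox and highest in WT +dox. Esrrb fell by 0.67 (SE 0.06) and Nanog by 0.51 (SE 0.07) in F266A -dox against F266A +dox. The part of Tcf7l1 in these differences was not tested.

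**Figure D4:**
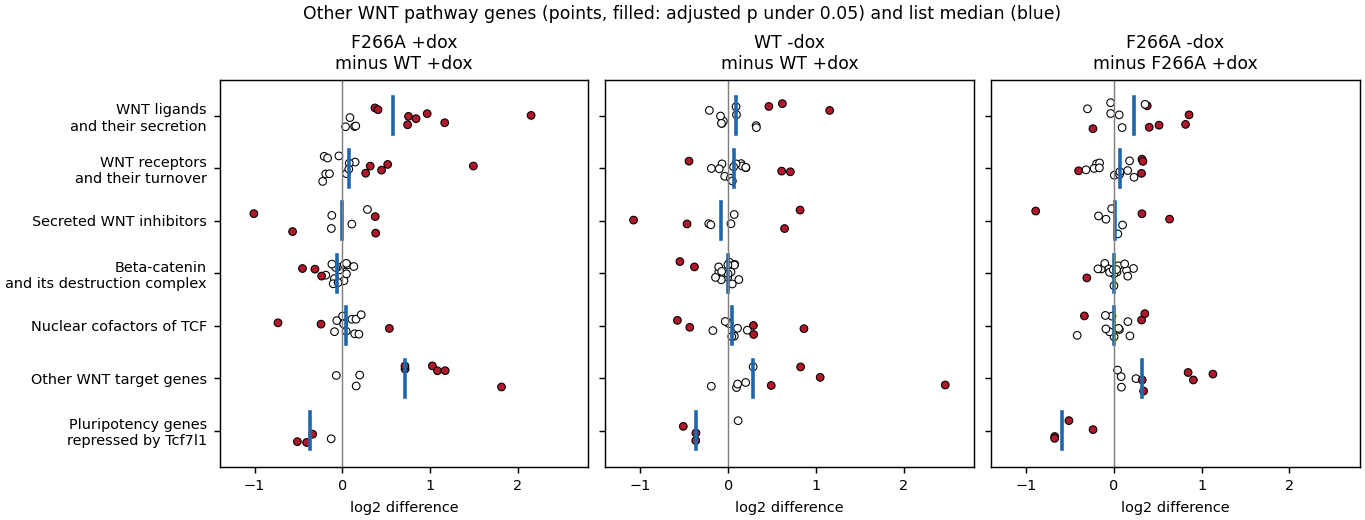
Log2 differences (horizontal axis) of the 74 other tested pathway genes and the 4 genes repressed by Tcf7l1, by list (rows) in 3 comparisons. Points are genes, filled where the adjusted p is under 0.05, and blue bars are list medians. Ligand and other target genes lie to the right in F266A +dox minus WT +dox (medians 0.57 and 0.71) and the 4 genes repressed by Tcf7l1 to the left (-0.37).

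The genes most like a member were sought for Sp5 and Lef1, whose group means spanned at least 1, among 710 candidate genes by Pearson's r over the 8 arrays. Irgm1 (r = 0.992) and Pxdc1 (r = 0.992) were most like Sp5, and Gm9564 (r = 0.976) and Slc27a2 (r = 0.966) most like Lef1. Irgm1, an interferon-induced GTPase gene, read 8.04 and 8.30 in F266A -dox, 6.80 and 6.78 in F266A +dox, 5.72 and 6.18 in WT -dox, and 5.21 and 5.03 in WT +dox, where it was under the minimum. Slc27a2, a fatty acid transporter gene, read 10.26 and 10.11 in F266A -dox, 9.21 and 8.97 in F266A +dox, 9.69 and 9.75 in WT -dox, and 8.36 and 8.31 in WT +dox. These are descriptions over 8 arrays that share 4 groups.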

How the data were processed

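The authors hybridised total RNA of 8 ESC samples to Affymetrix mouse arrays and summarised the probes by RMA (in R 2.11.1 by the submitters' processing notes). The deposited table holds the resulting log2 values of 45101 probe sets, with background correction and quantile normalization thus already applied, and it was used without further scaling. RMA compresses small differences near background, and arrays give no read depth, so precision is limited by how few arrays there are. Gene names came from the platform annotation: 34945 probe sets had 1 symbol, 932 several, 9160 none and 64 were controls, and only those with 1 symbol were used. As in the authors' methods, probe sets over 50 (linear) in at least 1 array were averaged per gene.

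The authors tested with SAM, which was not installed, so limma 3.58.1 in R 4.3.3 was fitted to all 8 arrays as 4 group means (4 residual and 5.32 prior degrees of freedom), two-sided, with Benjamini-Hochberg adjustment over the 11940 genes of each of 7 contrasts. The fit was tested on simulated data. Its p-values measure the spread between duplicates of these lines. The study's methods call them biological duplicates and do not describe their separate culture. The members and the gene lists were chosen with earlier results of these data known. By rule, all members were described, and of each pathway list at most the 3 called genes with the largest difference in F266A +dox minus WT +dox or on withdrawal in either line. Klf4, Dnmt3l, Dab2, Foxa2, Sox1, Pax6, Tubb3, Nes, Cdx2, Krt7, Hand1, Tfap2c, Fbln1, Wnt5b, Wnt8a and Cd44 were named after their values were seen. Motifs were searched in RefSeq promoters (GRCm38.p6). Alternatives were a minimum of 100 or none, the probe set of highest mean or each probe set, quantile normalization or centring on the array median, a block for the replicate number, fitting just the groups of a contrast, a trended and robust prior, a 2-fold threshold and leaving out each array.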

Additional observations from a re-analysis of the deposited data

Results flagged for a closer look

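The rise of Sp5 on withdrawal of doxycycline differed between the 2 lines. It was 1.63 ± 0.13 (SE) in the F266A line and 0.56 ± 0.13 in the WT line, a difference of 1.08 ± 0.19 (log2, limma interaction, adjusted p = 0.0157), with both F266A -dox arrays above both F266A +dox arrays and both WT -dox arrays above both WT +dox arrays. The call ended when either F266A +dox array was left out, with adjusted p between 0.000667 and 0.0711 over all alternatives. Each line was made once, so the transgene and other properties of the lines cannot be told apart.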

How the results depend on the processing

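Of 42 differences of single members, 20 were called and 12 of these held under every alternative other than the 2-fold threshold and the crossed pairing, which were run on counts only, and those that did not are given with the results. Over all genes, at least 2-fold calls numbered 234 in F266A +dox minus WT +dox, 162 in WT -dox minus WT +dox, 48 in F266A -dox minus F266A +dox, 216 in F266A -dox minus WT -dox, 82 in F266A +dox minus WT -dox, 653 in F266A -dox minus WT +dox and 61 for the interaction, where the adjusted p alone called 3384, 3763, 2333, 3277, 1611, 6080 and 615. Of the members, 1, 1, 2, 1, 1, 2 and 1 were called at 2-fold. With no minimum, 1537 genes were called in F266A -dox minus F266A +dox, 1059 in F266A +dox minus WT -dox, 290 for the interaction, and 2 members in F266A +dox minus WT +dox. The trended and robust prior called 1110 genes for the interaction.

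Leaving out 1 array gave 1931 to 3511 genes and 1 to 4 members in F266A +dox minus WT +dox, 2360 to 3918 and 1 to 4 in WT -dox minus WT +dox, 1009 to 2268 and 3 to 4 in F266A -dox minus F266A +dox, 1947 to 3227 and 2 to 4 in F266A -dox minus WT -dox, 633 to 1732 and 2 to 3 in F266A +dox minus WT -dox, 4918 to 5872 and 4 to 5 in F266A -dox minus WT +dox, and 174 to 689 and 0 to 2 for the interaction.

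Signs turned only in differences that were not called, and the cause was not tested. WT -dox minus WT +dox of Nkd1 was 0.010 with centring, 0.031 with no minimum, 0.025 with quantile normalization, and -0.23 to 0.22 with 1 array left out. Leaving out 1 array gave Nkd1 -0.12 to 0.33 in F266A -dox minus WT -dox, -0.33 to 0.13 in F266A +dox minus WT -dox and -0.016 to 0.44 for the interaction, and Lef1 -0.037 to 0.43 in F266A -dox minus WT -dox. The interaction of Tcf7l1 was 0.0077 with quantile normalization and -0.12 to 0.10 with 1 array left out. For Tcf7l2, F266A -dox minus F266A +dox was -0.13 with no minimum and -0.15 to 0.19 with 1 array left out, and F266A -dox minus WT +dox was -0.24 to 0.10.

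Deviations of arrays with the same replicate number correlated between -0.18 and 0.16, so the numbers were not taken to pair the samples. With the replicate number as a block, all genes called numbered 3105, 3439, 2079, 2978, 1401, 5814 and 451 in the order above. Crossed pairing of the WT replicates, an alternative chosen after seeing the data, gave 3806, 4201, 2827, 3696, 1921, 6452 and 895. With a minimum of 100, Tcf7l2 and Nkd1 dropped out and 4 members were tested.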
